A study of Mus musculus with 6 samples.

Results

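A set of 10 genes of neurogenic transcription control was followed through REST silencing in N18 cells: the basic helix-loop-helix (bHLH) genes Neurod1, Neurog1 and Tcf4, the inhibitor genes Id1, Id2, Id3 and Id4, and the SRY-box genes Sox2, Sox4 and Sox11. The members were chosen by gene symbol, as all spots that the platform annotation assigns to these names. All 10 genes were measured, on 21 of the 44290 spots and among 19019 genes with a value on all 6 arrays. Tcf4, Id1, Id2, Id4 and Sox11 had several spots, and the other 5 genes had 1 spot each.

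N18 is a mouse neuroblastoma line, a tumour line of the sympathetic lineage grown in culture. Each of the 6 two-colour arrays set RNA of N18 cells transfected with an Nrsf siRNA (Nrsf is the older name of Rest) against RNA of N18 cells transfected with a scrambled siRNA, which is the control. The siRNA sample carried Cy5 on arrays 1 to 3 and Cy3 on arrays 4 to 6. The series' design text also names overexpression and human genes, which conflicts with the labels of all 6 samples. The labels were followed. All samples are of 1 cell line, no siRNA sequence or time after transfection is given in the sources used here, and the samples are called independent with no word on separate transfections. The p-values therefore measure only how these samples vary, which may be technical in part. Each array gives a log2 ratio per spot, with the siRNA sample over the scrambled one. The log base was not stated and log2 was assumed, so folds would be larger on a natural log scale. The numerator was not stated either, and siRNA over scrambled was taken for all 6 arrays. The sample names put the siRNA sample first on arrays 1 to 3 and last on arrays 4 to 6. Their order therefore does not settle the direction. Read this way, Rest, the siRNA target, was below 0 on all 6 arrays (mean -0.35). Every higher or lower would turn round were the direction the opposite. A ratio carries no level, so whether a gene or a marker of the cell line was expressed at all could not be checked.

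REST is a zinc finger repressor that keeps many neuronal genes off outside neurons. Proneural bHLH factors such as Neurog1 start the neuronal programme in progenitors, and Neurod1 acts after them in differentiating neurons. Both bind DNA at E-boxes as partners of broadly expressed E proteins, of which Tcf4, Tcf3 and Tcf12 are the mammalian members. Id proteins have the helix-loop-helix but lack the basic region that binds DNA, so they take up E proteins in inactive pairs. They are known as direct targets of bone morphogenetic protein (BMP) signalling through Smad proteins. Sox2 maintains neural progenitors, while Sox4 and Sox11 promote the expression of neuronal genes in cells that leave the cycle.

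Between 43689 and 43778 spots had a value on each array. Correlations over genes were 0.54 to 0.82 within arrays 2 to 6, and 0.29 to 0.37 between array 1 and those arrays. Rest had log2 ratios of -0.16, -0.34, -0.33, -0.27, -0.50 and -0.49 on arrays 1 to 6. Every array was below 0 (mean -0.35 ± 0.13, SD, n = 6, adjusted p = 0.00353 in limma). Its spots did not move alike: they stood at -0.05, -0.44 and -0.55.

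Of the 10 genes, Tcf4 alone passed the threshold of an adjusted p under 0.05 in the limma fit over all genes, and it was higher in siRNA-treated cells. For comparison, 15% of all genes passed, 5.88% higher and 9.11% lower. No member passed as lower, and Sox11 was the only member lower at an unadjusted p under 0.05 (unadjusted p = 0.0272 in limma). The median of the 10 members was -0.0085 on the log2 scale, and that of all genes was 0.0025. Tcf4 and Sox11 had 1 sign on all 6 arrays, as did 17.9% of all genes. Of the 21 single spots, 2 passed as higher and 2 as lower, against 4.21% and 6.85% of all spots tested. The higher ones belong to Tcf4 and the lower ones to Sox11. The spots tested include those with no listed gene, both in these shares and in the adjustment of p-values over spots. Shares among spots with a listed gene alone were not computed.

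**Figure D1:**
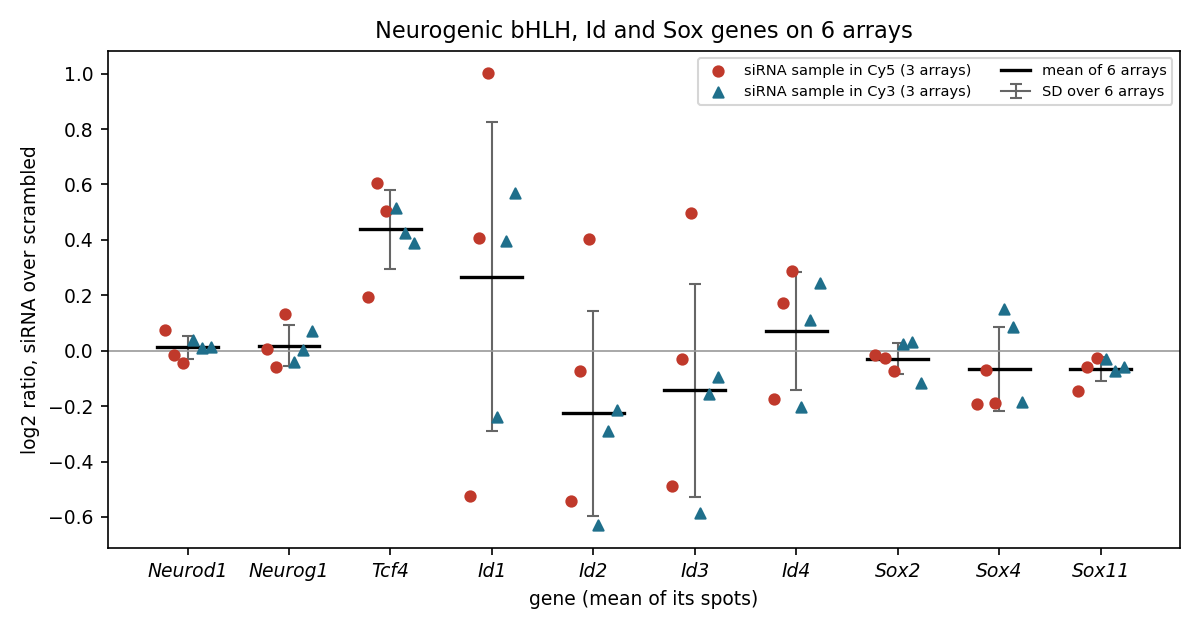
Log2 ratio of siRNA over scrambled (vertical axis) for the 10 genes, with 1 point per array, circles for the siRNA sample in Cy5 and triangles for Cy3. Lines are means and bars are SDs over 6 arrays. Tcf4 lies above 0 on every array (0.19 to 0.61), and the 4 Id genes spread most widely, with Id1 between -0.53 and 1.001.

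The first question was whether the bHLH activators and their E protein partner moved with Rest. Tcf4, the E protein, rose 1.36-fold. Its gene mean was 0.19, 0.61, 0.50, 0.51, 0.43 and 0.39 on arrays 1 to 6. All 6 arrays were above 0, with array 1 the lowest. The mean was 0.44 ± 0.14 (SD, n = 6), with a 95% interval of 0.31 to 0.57 and an adjusted p of 0.00402 in limma. The Cy5 arrays averaged 0.43 and the Cy3 arrays 0.44. In bulk RNA a change in the share of cells and a change in RNA per cell cannot be told apart.

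The 3 spots of Tcf4 are listed for a common transcript and did not move alike. Spot 3 had 0.41, 1.18, 0.93, 1.04, 0.95 and 0.88 on arrays 1 to 6, a 1.87-fold rise in the mean (0.90 ± 0.26, adjusted p = 0.00192 in limma over spots). Spot 1 had 0.076, 0.71, 0.50, 0.40, 0.29 and 0.22, with a mean of 0.36 ± 0.22 (adjusted p = 0.0264 in limma). Spot 2 stayed between -0.066 and 0.11, with a mean of 0.05 ± 0.06 (adjusted p = 0.423 in limma). The rise of the gene mean thus rests on spots 1 and 3. The gene mean did not pass with an unmoderated variance (adjusted p = 0.0520 in limma) or on the 3 Cy5 arrays alone (adjusted p = 0.225 in limma). Spot 3 passed without any single array, with adjusted p-values of up to 0.0198 in limma. Spot 1 passed without array 1 but not without array 2, 3, 4, 5 or 6, where its adjusted p reached 0.111 in limma.

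Among genes whose symbol is no RIKEN clone and no predicted or unnamed gene, Elavl2, Lims1 and Amhr2 lay nearest to the gene mean of Tcf4. Nearness was the root mean square difference over the 6 arrays. Elavl2, a neuronal RNA-binding protein gene, differed from it by 0.060 on the log2 scale and averaged 0.45 ± 0.14. Lims1, an adaptor of integrin adhesions, differed by 0.064, and Amhr2, the receptor of anti-Müllerian hormone, by 0.067. These 3 averaged between 0.41 and 0.45.

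Neurod1 and Neurog1, on 1 spot each, did not pass the threshold. Neurod1 had 0.073, -0.017, -0.044, 0.039, 0.008 and 0.014 on arrays 1 to 6. Its mean was 0.01 ± 0.04 (adjusted p = 0.833 in limma), with a 95% interval of -0.04 to 0.07. Neurog1 had 0.005, -0.059, 0.134, -0.042, 0.001 and 0.072. Its mean was 0.02 ± 0.07 (adjusted p = 0.812 in limma), with an interval of -0.06 to 0.09. Both genes lay on either side of 0 from array to array, in each dye orientation for Neurog1 and among the Cy5 arrays for Neurod1. Neurod1 also had a small spread, at the 12.2 percentile of the SDs of all genes.

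**Figure D2:**
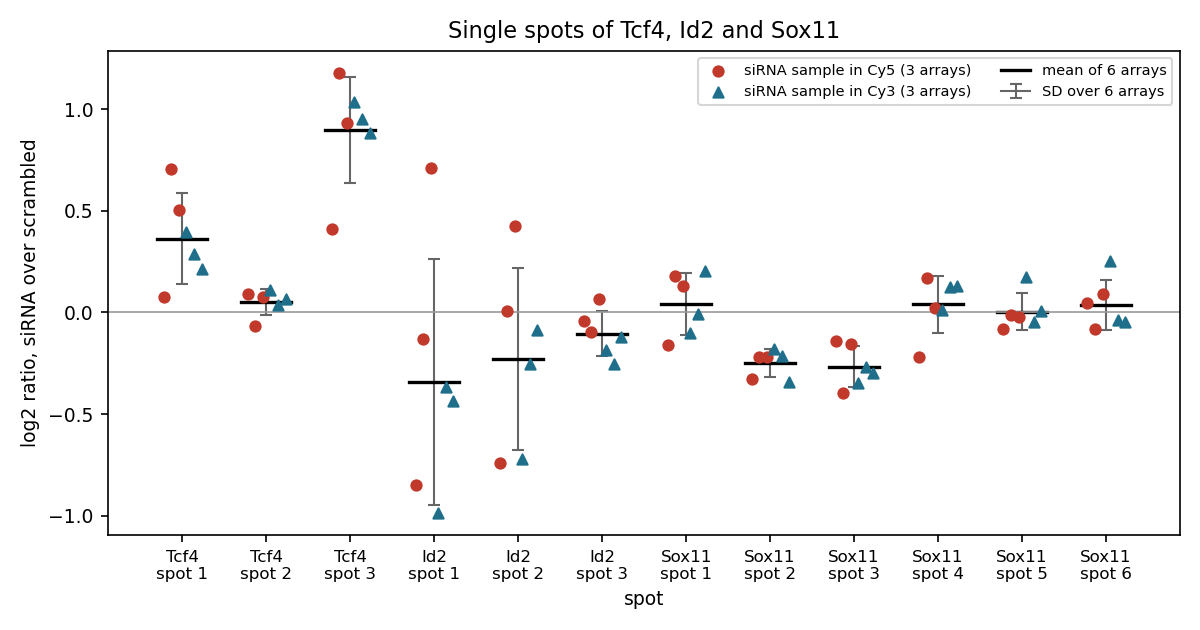
Log2 ratio of siRNA over scrambled (vertical axis) for each spot of Tcf4, Id2 and Sox11, with 1 point per array, circles for the siRNA sample in Cy5 and triangles for Cy3. Lines are means and bars SDs over 6 arrays. Tcf4 spot 3 averages 0.90 while spot 2 averages 0.05, and Sox11 spots 2 and 3 lie below 0 on every array while its other 4 spots average between 0.004 and 0.04.

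The Id genes showed no common shift in the mean but moved together from array to array. Promoter sequence is shown for these genes because they are the members that moved together. RefSeq windows on build GRCm38.p6 were searched for 8 of the 10 members. No window was at hand for Id1, and Tcf4, the only member that passed, was left out of the search. The 250 bases before the transcription start are printed 5′ to 3′ for Id2, Id3 and Id4. Capitals mark E-boxes (CANNTG, the same on either strand) and the core of the cyclic AMP response element (TGACG or its reverse complement CGTCA).

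Id2 promoter, chr12:25096093-25096342, minus strand: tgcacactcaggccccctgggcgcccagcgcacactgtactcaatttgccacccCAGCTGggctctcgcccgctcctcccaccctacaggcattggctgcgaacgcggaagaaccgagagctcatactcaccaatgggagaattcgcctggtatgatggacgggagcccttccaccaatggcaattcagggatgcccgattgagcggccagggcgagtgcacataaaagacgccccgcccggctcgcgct
Id3 promoter, chr4:136143572-136143821, plus strand: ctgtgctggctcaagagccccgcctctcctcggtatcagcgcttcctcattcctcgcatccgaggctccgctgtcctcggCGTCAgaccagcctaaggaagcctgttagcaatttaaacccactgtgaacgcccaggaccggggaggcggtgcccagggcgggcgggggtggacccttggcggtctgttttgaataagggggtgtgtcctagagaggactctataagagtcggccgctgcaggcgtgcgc
Id4 promoter, chr13:48260866-48261115, plus strand: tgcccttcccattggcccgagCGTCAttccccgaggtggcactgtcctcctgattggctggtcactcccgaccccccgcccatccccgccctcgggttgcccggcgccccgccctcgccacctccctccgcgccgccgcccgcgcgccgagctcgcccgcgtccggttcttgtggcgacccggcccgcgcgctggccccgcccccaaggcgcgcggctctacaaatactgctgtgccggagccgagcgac

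Id2 held 1 E-box and no TGACG, while Id3 and Id4 held 1 TGACG each and no E-box, so neither motif was common to the 3. Over the members searched, which do not include Tcf4 and Id1, 4 of 8 held an E-box, against 66.2% of 32851 windows. TGACG was in 2 of 8, against 17.8%. GGCGCC, a GC-rich sequence that Smad proteins can bind, was in 3 of 8 (Id2, Id4 and Neurog1), against 9.59% of windows. CAGCACC and GGACAGC, from the left and right parts of the REST binding element, were in 0 and 1 of 8 (Id3), against 5.73% and 5.28%. Both strands were searched and no 2 of these sites overlapped in the members. These are matches of letters in short windows and not binding sites.

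Id1 had gene means of -0.53, 0.41, 1.001, -0.24, 0.40 and 0.57 on arrays 1 to 6. Arrays 1 and 4 were below 0 and the other 4 above it. The mean was 0.27 ± 0.56 (SD, n = 6, adjusted p = 0.510 in limma), with a 95% interval of -0.21 to 0.74. Its pair of spots had like signs on every array, with means of 0.28 and 0.26. Without array 1, Id1 passed as higher, at 0.47 (adjusted p = 0.0226 in limma), and without any single other array it did not pass. Leaving out array 1 also raised the calls over all genes, to 2603 of 19019 higher, against 1119 with all 6 arrays.

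Id2 had gene means of -0.54, -0.074, 0.40, -0.63, -0.29 and -0.22 on arrays 1 to 6. Array 3 alone was above 0. The mean was -0.23 ± 0.37 (adjusted p = 0.318 in limma), with a 95% interval of -0.51 to 0.06. Its first 2 spots, listed for the RefSeq transcript, ranged from -0.99 to 0.71 and from -0.74 to 0.43 over arrays. The third spot, listed for another transcript, ranged from -0.25 to 0.066, the narrowest of the 3. On the 3 arrays with the siRNA sample in Cy3 alone Id2 passed as lower, at -0.38 (adjusted p = 0.0111 in limma), against a mean of -0.07 on the Cy5 arrays. In that Cy3 setting 2219 of the 19019 genes passed as lower, against 1733 with all 6 arrays. The difference between orientations did not pass the threshold (adjusted p = 0.702 in limma).

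Id3, on 1 spot, had -0.49, -0.031, 0.50, -0.59, -0.16 and -0.095 on arrays 1 to 6. As for Id2, array 3 alone was above 0. The mean was -0.14 ± 0.38 (adjusted p = 0.596 in limma), with an interval of -0.45 to 0.16. Id4 had gene means of -0.18, 0.17, 0.29, -0.21, 0.11 and 0.25. Arrays 1 and 4 were below 0 and the others above, as for Id1. The mean was 0.07 ± 0.21 (adjusted p = 0.672 in limma), with an interval of -0.11 to 0.26. Its spots, listed for a common transcript, differed in spread: spot 1 lay between -0.078 and 0.30 (mean 0.10 ± 0.14) and spot 2 between -0.34 and 0.50 (mean 0.05 ± 0.33).

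The spread of the Id genes was large for this series. The SDs of Id1, Id2 and Id3 lay at the 99.9, 99.2 and 99.3 percentiles of all genes, and that of Id4 at the 90.8 percentile. The median SD over genes was 0.078. The gene means of all 4 were lowest on array 1 and highest on array 3 among the Cy5 arrays, and lowest on array 4 and highest on array 6 among the Cy3 arrays. Single spots departed from this order. Id2 spot 1 was higher on array 5 (-0.366) than on array 6 (-0.435). Id2 spot 3 was lowest on array 2 (-0.095) and on array 5 (-0.25). Id4 spot 1 was higher on array 2 (0.20) than on array 3 (0.071). The mean over the 4 genes was -0.43, 0.12, 0.55, -0.41, 0.01 and 0.13 on arrays 1 to 6. The low values therefore included array 1, which stood apart over all genes, and array 4, which did not.

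The common course of the Id genes was seen in the values and then measured on the same 6 arrays, so the correlations are a description with no test. Across the 6 pairs of Id genes, Pearson's r ran from 0.87 (Id2 with Id4) to 0.99 (Id2 with Id3), and Spearman's rho ran from 0.89 to 1.0. Such values were not confined to the family: of the 19015 other genes, 5.12% reached the lowest of these r with Id1, 3.5% with Id2, 2.93% with Id3 and 2.48% with Id4. The median r over those genes was 0.13 to 0.15. Leaving out the 2 arrays farthest from the median of the first gene of a pair gave an r of 0.86 to 0.97, and leaving out array 1 gave 0.84 to 0.99. After centring within each dye orientation, r was 0.92 to 0.997. With 3 arrays an orientation is too small for a correlation of its own. The ratios of an array share their RNA samples and their scan, and the part of either in this course was not tested.

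**Figure D3:**
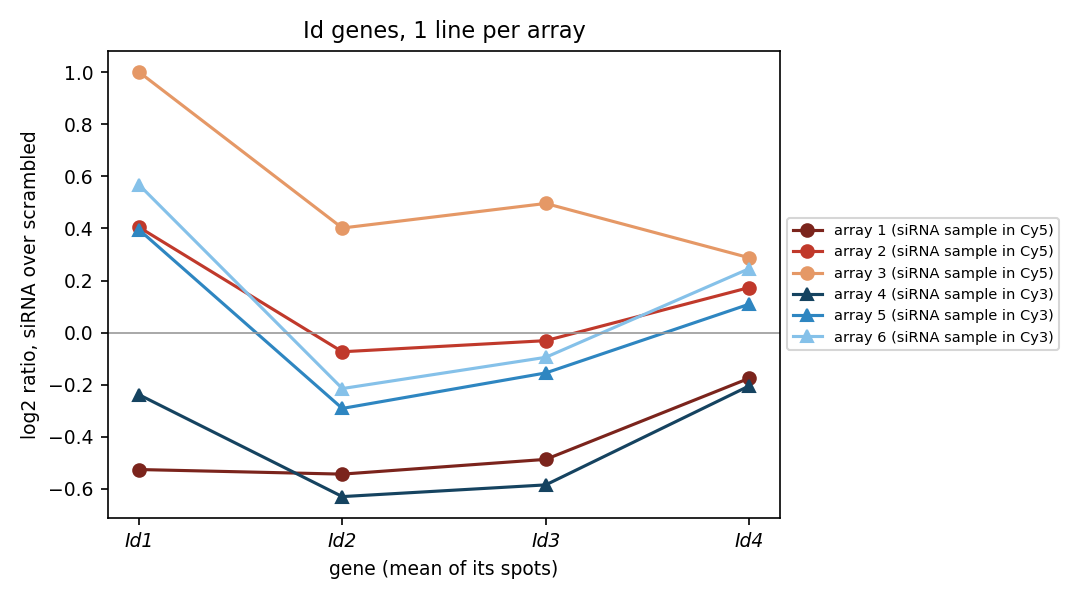
Log2 ratio of siRNA over scrambled (vertical axis) for Id1 to Id4 (horizontal axis), with 1 line per array, circles for the siRNA sample in Cy5 and triangles for Cy3. The line of array 3 is the highest for each gene, and the lines of arrays 1 and 4 are the lowest, with means over the 4 genes of 0.55, -0.43 and -0.41.

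No Sox gene passed the threshold in its gene mean. Sox2, on 1 spot, lay between -0.12 and 0.03, with a mean of -0.03 ± 0.06 (adjusted p = 0.606 in limma) and a 95% interval of -0.09 to 0.03. Sox4, also on 1 spot, had -0.19, -0.07, -0.19, 0.15, 0.08 and -0.19 on arrays 1 to 6. Its 3 Cy5 arrays were below 0 and the Cy3 arrays lay on either side, with a mean of -0.07 ± 0.15 (adjusted p = 0.478 in limma). Its 95% interval was -0.18 to 0.05.

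Sox11 was below 0 on 6 of 6 arrays but did not pass the threshold as a gene. Its gene mean was -0.147, -0.060, -0.026, -0.031, -0.074 and -0.057 on arrays 1 to 6. The mean was -0.07 ± 0.04 (adjusted p = 0.127 in limma), with a 95% interval of -0.12 to -0.01. The 6 spots fell into a pair that passed and 4 that did not. Spot 2 had -0.33, -0.22, -0.22, -0.18, -0.21 and -0.34, and fell to a ratio of 0.841 (-0.25 ± 0.07 on the log2 scale, adjusted p = 0.00406 in limma). Spot 3 had -0.14, -0.40, -0.16, -0.35, -0.27 and -0.30 and also fell (-0.27 ± 0.10, adjusted p = 0.00672 in limma). Both were below 0 on 6 of 6 arrays and passed without any single array. The other 4 spots averaged between 0.004 and 0.04, with adjusted p-values of 0.770 to 0.974 in limma. Spots 5 and 6 are listed for the transcript of spot 2, while spot 3 alone is listed for its own. With the first listed spot in place of the mean, Sox11 was at 0.04.

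Of the other E proteins Tcf12 passed and Tcf3 did not. Tcf12 rose, with gene means of 0.14, 0.38, 0.42, 0.20, 0.28 and 0.29 on arrays 1 to 6. All 6 arrays were above 0 (mean 0.28 ± 0.11, adjusted p = 0.00648 in limma). Of its 5 spots, 1 averaged 1.097 and another 0.24, and both passed. The other 3 averaged between 0.018 and 0.043 and did not pass. Tcf3 had a mean of -0.08 ± 0.13.

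Genes of the same families and pathways were taken from lists. The lists were of further bHLH genes, E proteins, other Sox genes, the BMP pathway, POU partners and further neurogenic regulators. Of 86 measured genes, 10 rose and 5 fell, and their median was 0.0091. That is 17.4% called, close to the 15% of all genes, with 11.6% higher and 5.81% lower, against 5.88% and 9.11% of all genes. Of the 15, 11 have several spots, and in 8 of these some spots did not pass. Without array 4, 5 or 6, 6 rose, and without array 6, 3 fell.

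The BMP pathway, which acts upstream of the Id genes, held 7 of these calls. Of its 23 measured genes, 4 rose and 3 fell, with a list median of 0.011. That is 17.4% higher and 13% lower. Bmpr1a, a type I BMP receptor, averaged 0.54 ± 0.14, and Bmpr2, the type II receptor, averaged 0.36 ± 0.14. Smad5, a receptor-activated Smad, averaged 0.38 ± 0.12, and Smurf2, a ubiquitin ligase that acts on Smad proteins, averaged 0.14 ± 0.07. Smad4, the common partner of receptor-activated Smads, fell on each of its spots (-0.38 and -0.40), with a mean of -0.39 ± 0.15. Fst, a secreted antagonist of activin and BMP ligands, fell by 0.24 ± 0.08, and Bambi, a pseudoreceptor, fell by 0.17 ± 0.08 with 9 of its 11 spots past the threshold. Adjusted p-values of these 7 genes ran from 0.00172 for Bmpr1a to 0.0199 for Smurf2 in limma. Smurf2 did not pass without array 2, 4, 5 or 6, nor Bambi without array 6.

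The rises in the BMP receptors and in Smad5 rested on 1 spot each. The spots of Bmpr1a averaged 0.0032 and 1.07, and those of Bmpr2 averaged 1.01, 0.10 and -0.022. The spots of Smad5 averaged 1.20, 0.083 and -0.13, and the last of these passed as lower (adjusted p = 0.0363 in limma). The spots of Tcf4, Tcf12, Bmpr1a, Bmpr2 and Smad5 thus each included 1 spot at 0.90 or more and at least 1 spot that did not pass, at 0.10 or below. Between these lay spots that passed at smaller values, at 0.36 for Tcf4 and 0.24 for Tcf12. For Tcf12 and Bmpr2 the highest spot is listed for another transcript than the other spots. For Tcf4, Bmpr1a and Smad5 all spots of a gene are listed for a common transcript. Which spot reports the transcript correctly was not tested.

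**Figure D4:**
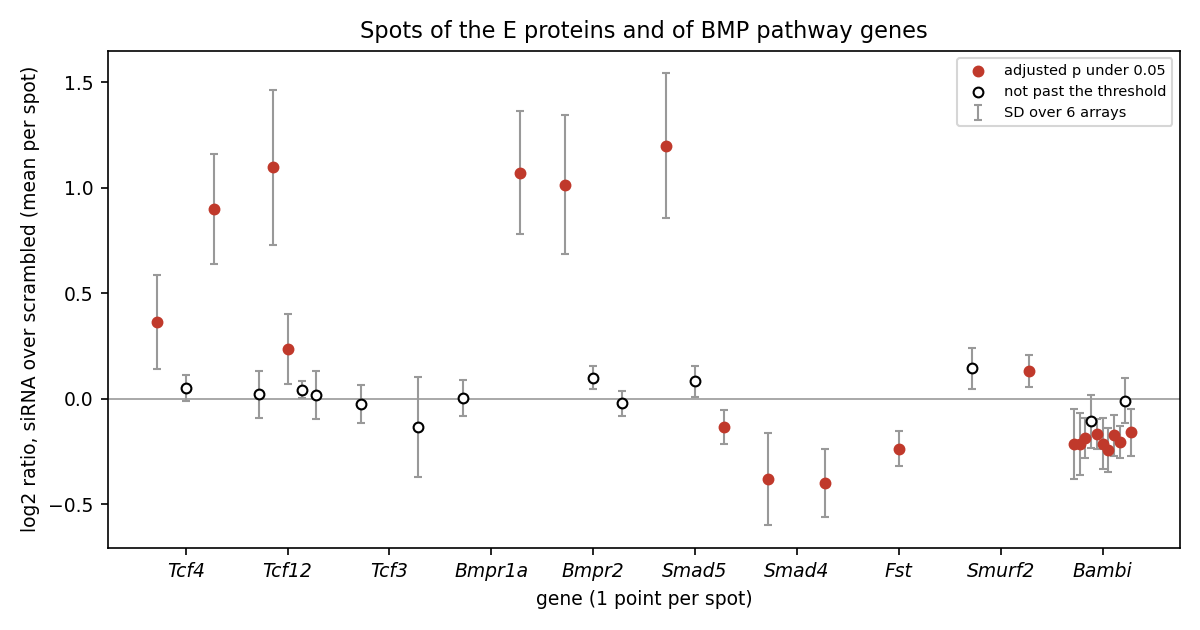
Mean log2 ratio of siRNA over scrambled (vertical axis) for each spot of the E protein genes and of the BMP pathway genes that passed, with SD bars over 6 arrays. Filled points passed an adjusted p of 0.05 and open points did not. Tcf4, Tcf12, Bmpr1a, Bmpr2 and Smad5 each have 1 spot between 0.90 and 1.20 and at least 1 open point at 0.10 or below, whereas the spots of Smad4 lie together at -0.38 and -0.40.

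Among 20 further measured bHLH genes, not all of them neuronal, 2 rose (10%) and 0 fell. No other gene of this list had an unadjusted p under 0.05 in limma. Hand2, a bHLH factor of the sympathetic lineage, averaged 0.20 ± 0.12 (adjusted p = 0.0254 in limma), with spots at 0.23 and 0.18. Atoh8 averaged 0.13 ± 0.07 (adjusted p = 0.0346 in limma). Hand2 did not pass without array 2, 3, 4 or 5, nor Atoh8 without any single array but array 1. Of 16 other Sox genes, Sox8 rose (0.15 ± 0.08, adjusted p = 0.0103 in limma), on both of its spots, though not without array 6. The other 15 did not pass. None of 6 measured POU partners passed, and none of them had an unadjusted p under 0.05 in limma. Over all genes 5.88% passed as higher and 9.11% as lower, and lists this small can hold few or no calls at such shares.

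Of 19 further neurogenic regulators, 2 rose and 2 fell, 10.5% each. St18, a zinc finger factor of the Myt1 family, rose on each of its spots (0.33 and 0.38), with a mean of 0.35 ± 0.19. Insm1, a zinc finger factor of neurogenesis and endocrine cells, rose with a small spread (0.18 ± 0.05). Pax6, a progenitor factor, fell by 0.17 ± 0.04, with spots at -0.36, -0.16 and 0.0042. Gmnn, an inhibitor of replication licensing also linked to neural fate, fell by 0.34 ± 0.20. Adjusted p-values ran from 0.00456 for Pax6 to 0.0257 for Gmnn in limma. St18 did not pass without array 3, 4, 5 or 6, nor Gmnn without array 4, 5 or 6, while Insm1 and Pax6 passed without any single array.

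Markers of other cell types were set beside these results. Of 8 glial, 10 mesenchymal and 6 immune markers none passed in limma, against 15% of all genes. The number with an unadjusted p under 0.05 in limma was 1, 1 and 0. The gene means of these lists ran from -0.03 to 0.09, from -0.08 to 0.13 and from -0.04 to 0.02. Ratios do not show whether these markers were expressed. Of 9 markers of the sympathetic neuroblastoma lineage, 4 rose (Phox2a, Tubb3, Chga and Hand2) and Gata3 fell. That is 55.6% called, against 15% of all genes. Th, Dbh, Stmn2 and Elavl4 did not pass. The gene means of this list ran from -0.51 for Gata3 to 0.44 for Phox2a. Tubb3 passed narrowly (adjusted p = 0.0494 in limma) and stood at -0.15 on array 1. Olig1, Sox10, Twist1 and Hand2 are markers here and also stand on the bHLH or Sox lists above, so these lists overlap. The part of cell make-up in the changes of Tcf4 and of the other genes was not tested.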

How the data were processed

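Total RNA of N18 cells was extracted with Trizol and labelled with an Agilent linear amplification kit, per the labels' protocols. The authors deposited 1 table of normalized log2 ratios (base inferred) for 44290 spots and 6 arrays, with each column matched to its sample. How the arrays were scanned and normalized is not stated in the sources used here. The platform annotation gave 1 gene to 32042 spots and several to 47, and 12201 spots were unlisted. Symbols were updated through gene identifiers, of which 31906 were in the GRCm38.p6 table. Between dye orientations, spots with a listed gene correlated at 0.53 to 0.71 (arrays 2 and 3 with arrays 4 to 6). Spots with none correlated at -0.68 to -0.40 (arrays 1 to 3 with arrays 4 to 6). The range for listed spots leaves out array 1, so the sets of arrays differ. Over genes, array 1 correlated at 0.29 to 0.37 with the other arrays. The signs were kept as deposited on the strength of the listed spots, and the source of the opposite sign in the unlisted spots was not tested.

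Spots with a value on all 6 arrays (43530) were averaged per gene. Tests used limma 3.58.1 in R 4.3.3 (lmFit, eBayes) on a mean ratio and a dye term, with 4 residual degrees of freedom and Benjamini-Hochberg adjustment over all 19019 genes or all spots (threshold 0.05). Errors are SDs over arrays. The number of arrays limits the precision that can be stated, as do the lack of word on separate transfections and the differences between spots of a gene. Ratios hold no depth. The members, the lists and the rule for named genes were chosen with earlier results of these data known. Named were the members, Rest, list genes past the threshold (up to 6 a list with the largest change, and for the BMP pathway also the next, chosen after its values were seen) and 3 nearest genes for each member that passed. Nearest genes were sought without RIKEN clones and predicted or unnamed genes. The fit was also run on simulated data with known changes and independent noise for each gene and array. Such noise lacks the shared course of genes over arrays seen here, so that run does not bear on it.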

Additional observations from a re-analysis of the deposited data

Results flagged for a closer look

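Over 45 sets of 6 arrays (gene means and single spots), 3 had an array whose gap to the nearest other array exceeded the 95% critical value of Dixon's test, which chance gives in about 1 set in 20. Smad5 stood at 0.14 on array 1, below 0.39 to 0.50 on the other arrays. Sox11 spot 5 stood at 0.175 on array 4, above -0.081 to 0.009 on the others. Rest spot 3 stood at -0.73 on array 5, below -0.56 to -0.48 on the others.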

How the results depend on the processing

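Tcf4 kept its direction in all 16 alternatives, at 0.36 to 0.50. It did not pass with an unmoderated variance (adjusted p = 0.0520 in limma) or on the 3 Cy5 arrays alone (adjusted p = 0.225 in limma). Leaving out single arrays gave 1 to 2 members higher and 0 lower, 1 to 4 member spots higher and 2 lower, and 6 to 12 listed pathway genes higher and 3 to 6 lower. Over all genes it gave 329 to 2603 higher and 787 to 2318 lower, the most without array 1 and the fewest without array 5. With an unmoderated variance 193 genes were higher and 677 lower, 0 members higher, 0 member spots higher and 0 lower, and 4 pathway genes higher and 3 lower. On the Cy5 arrays alone 0 genes were higher and 9 lower, with 0 members, 0 member spots and 0 pathway genes in either direction. On the Cy3 arrays alone 2043 genes were higher and 2219 lower. Of the members Tcf4 was higher and Id2 lower there, and 2 member spots were higher and 4 lower. Array weights gave 2389 genes higher. Values near 0 changed sign: Sox11 to 0.04 with its first listed spot, Sox4 to 0.016 on the Cy3 arrays, Neurod1 (-0.0051 to 0.024 without single arrays, below 0 without array 1) to -0.00083 with array weights, and Neurog1 (-0.0083 to 0.040 without single arrays, below 0 without array 3). Rest did not pass on the Cy5 arrays alone (-0.28, adjusted p = 0.205 in limma) or with its first listed spot (-0.054, adjusted p = 0.742 in limma). The cause of these differences was not tested. The ratio of each array already pairs the siRNA and scrambled samples of 1 number, so no further replicate block was fitted. The ratios hold no signal over background.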

Other observations

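Genes that followed the Id genes were looked for after their common course was seen. The search covered 1076 genes outside the members with an SD above 0.25 over arrays. Symbols of RIKEN clones and of predicted or unnamed genes were left out of it. The correlations are given as a description with no test, since the genes were picked as the extremes and share the 6 arrays. Dusp2, a phosphatase of MAP kinases, followed the mean of the 4 Id genes most closely (r = 0.99 over 6 arrays), with 0.36, 1.11, 1.79, 0.18, 1.04 and 1.14 on arrays 1 to 6. Unlike the Id genes it passed the threshold (mean 0.94 ± 0.59, adjusted p = 0.0259 in limma). Sumf1, which activates sulfatases, and Dok4, a docking protein of receptor tyrosine kinases, came next (r = 0.98 and 0.97), at means of 0.06 and 0.21. Fads1, a fatty acid desaturase, ran opposite (r = -0.99), with 0.17, -0.44, -0.76, 0, -0.26 and -0.42. Ankrd37, an ankyrin repeat protein gene, did so too (r = -0.97, mean -0.36 ± 0.28). All 5 rest on 1 spot each.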
